A study of Mus musculus with 22 samples.

Results

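Tagln, Acta2 and Cnn1 encode proteins of the smooth muscle contractile apparatus, and their RNA was followed in mouse embryos, in the anterior part of the neural tube, after arsenate exposure of the dam. The genes were found by their symbol in the array annotation, which gave 1 probe for each. These are 3 of the 9230 genes with an unambiguous symbol on the array, and all 3 passed the filter on dim probes, which kept 7187 genes. The trio was chosen by its measured levels in all 6 groups described here, so its levels and differences are a description, and no p-value is given for it.

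Arsenic groups came from Folr2-/- dams injected intraperitoneally with sodium arsenate at 9.6 mg As per kg, and control groups from Folr2-/- dams given water. Both received an injection on gestational day (GD) 7 and another on GD8. Folr2 encodes a folate-binding membrane protein, and the labels describe both arms as nullizygous for it, so no embryo with the gene intact is part of the comparison. The anterior neural tube was collected at GD8:15, GD9:00 and GD9:12 (day and hour), which were 3, 12 and 24 h after the later injection. Each group held 4 arrays, apart from the arsenic GD9:00 and control GD9:12 groups with 3. Whether an array stands for its own dam is not stated, so standard errors and p-values describe the spread between these samples, which may be technical.

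Smooth muscle cells contract when myosin pulls on actin filaments, and calponin and transgelin bind those filaments. In early mouse embryos the same genes are also switched on for a time in the heart tube, before sarcomeric actins take over there. Many of them are driven by serum response factor (SRF) and its cofactor myocardin, which act through a short AT-rich element called the CArG box, and TGF-beta is a known inducer of the programme. Acta2 encodes smooth muscle alpha-actin, Cnn1 encodes calponin 1, which binds actin and lowers myosin ATPase activity, and Tagln encodes transgelin (SM22 alpha), an actin-binding protein that is among the earliest markers of the lineage.

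In the GRCm38.p6 annotation Tagln lies on chromosome 9 at 45929628-45936058, Cnn1 also on chromosome 9 at 22099221-22109221, and Acta2 on chromosome 19 at 34240336-34255585. For Acta2 (chr19:34255374-34255623, minus strand) and Cnn1 (chr9:22099003-22099252, plus strand), whose levels varied together across the arrays, the 250 bases before a transcript start are shown from the RefSeq promoter table on GRCm38.p6. The RefSeq promoter table gave no window for Tagln. The starts that the table uses, bases 34255373 for Acta2 and 22099253 for Cnn1, lie inside the gene spans above, so 212 bases of the Acta2 window and 32 of the Cnn1 window overlap the annotated gene. Capitals mark CArG boxes with at most 1 of the 6 central positions changed from A or T to G or C.
Acta2: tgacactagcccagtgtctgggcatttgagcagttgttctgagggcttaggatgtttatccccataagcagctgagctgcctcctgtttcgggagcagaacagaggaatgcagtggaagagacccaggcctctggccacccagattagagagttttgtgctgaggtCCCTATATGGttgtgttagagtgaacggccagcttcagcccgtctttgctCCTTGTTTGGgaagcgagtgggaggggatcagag
Cnn1: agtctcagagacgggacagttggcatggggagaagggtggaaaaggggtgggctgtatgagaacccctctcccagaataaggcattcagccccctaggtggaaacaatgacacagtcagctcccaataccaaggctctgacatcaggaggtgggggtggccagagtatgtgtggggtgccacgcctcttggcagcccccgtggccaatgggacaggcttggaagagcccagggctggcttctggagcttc

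The Acta2 window held 2 such boxes, at bases 84 to 75 and 34 to 25 upstream of that start, each with 1 central position changed. The Cnn1 window held none, which says only that the letters are not in these 250 bases. The element reads the same way on both strands, so 1 search covered both. Of 32851 RefSeq windows of this length, 2823 (8.59%) held a box with at most 1 central change and 482 (1.47%) held an unchanged one. Among genes described below, the windows of Actc1, Acta1, Actg1, Cnn2, Myl7, Vcl and Srf each held an unchanged box, as did 4 of 7 windows of the paralogs and 3 of 23 windows of other smooth muscle contractile genes.

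Cnn1 showed the largest swing of the trio, below control at the earliest stage and above it at the middle one. At GD8:15 its normalised intensities were 448, 386, 508 and 305 in arsenic embryos, against 1248, 902, 824 and 728 in controls. The ranges did not overlap, and the mean log2 intensity was 8.66 ± 0.32 in arsenic embryos and 9.82 ± 0.33 in controls (SD, n = 4 each). The log2 difference, arsenic minus control, was -1.17 ± 0.32 (SE), or 2.24-fold lower in arsenic embryos, and ranked 17 from the lowest among 7830 tested probes.

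At GD9:00 Cnn1 intensities were 811, 588 and 701 in arsenic embryos, against 175, 290, 296 and 759 in controls. All 3 arsenic arrays lay above 3 of the control arrays, and control replicate 4 stood inside the arsenic range. The log2 difference was 1.09 ± 0.34 (SE), a 2.12-fold higher level in arsenic embryos that ranked 54 from the highest. It was 0.55 without control replicates 1 and 2, the arrays with the largest share of probes in runs of low signal (described below), and 1.49 without control replicate 4. At GD9:12 the level was low in both arms, at 264, 279, 284 and 173 in arsenic embryos against 240, 221 and 177 in controls, and the difference of 0.22 ± 0.34 (SE) was smaller than its error.

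Acta2 followed the same order of signs with a smaller amplitude. Its GD8:15 intensities were 212.7, 214.1, 191 and 193.2 in arsenic embryos and 268.4, 231.3, 284.6 and 225.6 in controls. The ranges did not overlap, and the log2 difference was -0.31 ± 0.14 (SE). At GD9:00 the values were 297.2, 250.3 and 220.6 in arsenic embryos and 151.7, 230.4, 187.3 and 275 in controls, an overlapping pair of groups with a difference of 0.30 ± 0.15 (SE). Without control replicate 1, whose Acta2 spot lay in a run of low signal, it was 0.16.

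By GD9:12 Acta2 gave 161, 166.9, 152.7 and 156 in arsenic embryos and 151.7, 154.2 and 150.3 in controls, with a difference of 0.06 ± 0.15 (SE). These are the flattest groups of the trio. Their mean log2 intensities, 7.31 and 7.25, were close to those of the Cdh2 probe at that stage, 7.41 and 7.25. Cdh2 lay at percentile 26.2 of mean intensity, just above the filter on dim probes. The Acta2 values depended on the scaling of the arrays. With the scaling the authors had applied, the difference was -0.07 at GD8:15 and 0.66 at GD9:00, on a scale where the median of all tested probes was itself shifted by 0.21 at GD8:15 and 0.43 at GD9:00. Quantile normalisation leaves that median at 0.00 at GD8:15 and 0.01 at GD9:00.

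Tagln was the brightest of the probes, at percentile 90.0 of mean intensity, with Cnn1 at 79.4 and Acta2 at 54.3. Probes differ in response, so these ranks do not order the transcripts. At GD8:15 Tagln gave 1007, 2023, 1239 and 479 in arsenic embryos and 1894, 2001, 261 and 1592 in controls. The groups overlapped and the difference was -0.10 ± 0.63 (SE). One array of each arm was low. Without control replicate 3 the difference was -0.79, and without arsenic replicate 4 it was 0.28, so no direction is given.

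At GD9:00 Tagln was higher in every arsenic array, at 1536, 1508 and 2793, than in any control, at 714, 175, 714 and 1392. The mean log2 intensity was 10.86 ± 0.51 (SD, n = 3) in arsenic embryos and 9.21 ± 1.26 (SD, n = 4) in controls. The difference of 1.65 ± 0.68 (SE), or 3.14-fold, ranked 10 from the highest among 7830 probes. Without control replicate 2, the lowest array, it was 1.06, or 0.90 when control replicate 1 was left out too. At GD9:12 the values were 1182, 783, 644 and 629 in arsenic embryos and 427, 621 and 369 in controls. Those groups also did not overlap, although the nearest arrays, at 629 and 621, almost touched, and the difference was 0.76 ± 0.68 (SE).

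**Figure D1:**
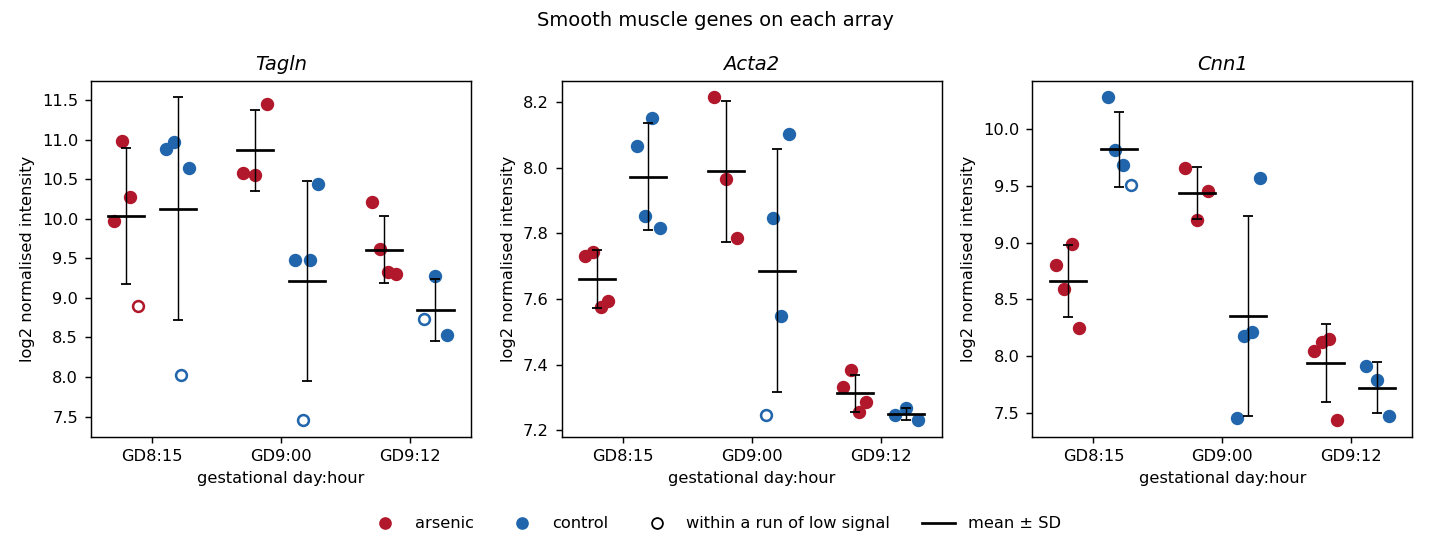
Log2 normalised intensity of Tagln, Acta2 and Cnn1 on each of the 22 arrays, by stage, with arsenic arrays (red) left of controls (blue), bars for mean ± SD and open points for spots within a run of low signal. Cnn1 arsenic arrays lie below all controls at GD8:15 (305 to 508 against 728 to 1248 on the linear scale), and Tagln arsenic arrays lie above all controls at GD9:00 (1508 to 2793 against 175 to 1392).

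No probe on the array passed an adjusted p of 0.05 (limma, Benjamini-Hochberg) for arsenic minus control at any stage, so 0% of 7830 were called. The lowest adjusted p was 0.0514 at GD8:15, 0.147 at GD9:00 and 1 at GD9:12, and 571, 984 and 100 probes had an unadjusted p under 0.05. The limma F test for any change of the arsenic difference between stages also called 0%, with 505 probes under an unadjusted 0.05 and a lowest adjusted p of 0.692. The opposite signs of Cnn1 and Acta2 at GD8:15 and GD9:00 are therefore given without a test. Arsenic and control ranges failed to overlap for 2 of the 3 genes at GD8:15 (3.84% of all tested probes), 1 at GD9:00 (9.63%) and 1 at GD9:12 (5.01%). Since these values chose the genes, nothing is read from those counts. A fall of over 1 on the log2 scale at GD8:15 together with a gain of over 1 at GD9:00, a threshold picked after the values were seen, occurred in 2 tested probes, those of Cnn1 and of the cardiac actin Actc1. Without control GD9:00 replicates 1 and 2 neither met it, with GD9:00 differences of 0.55 for Cnn1 and 0.43 for Actc1.

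**Figure D2:**
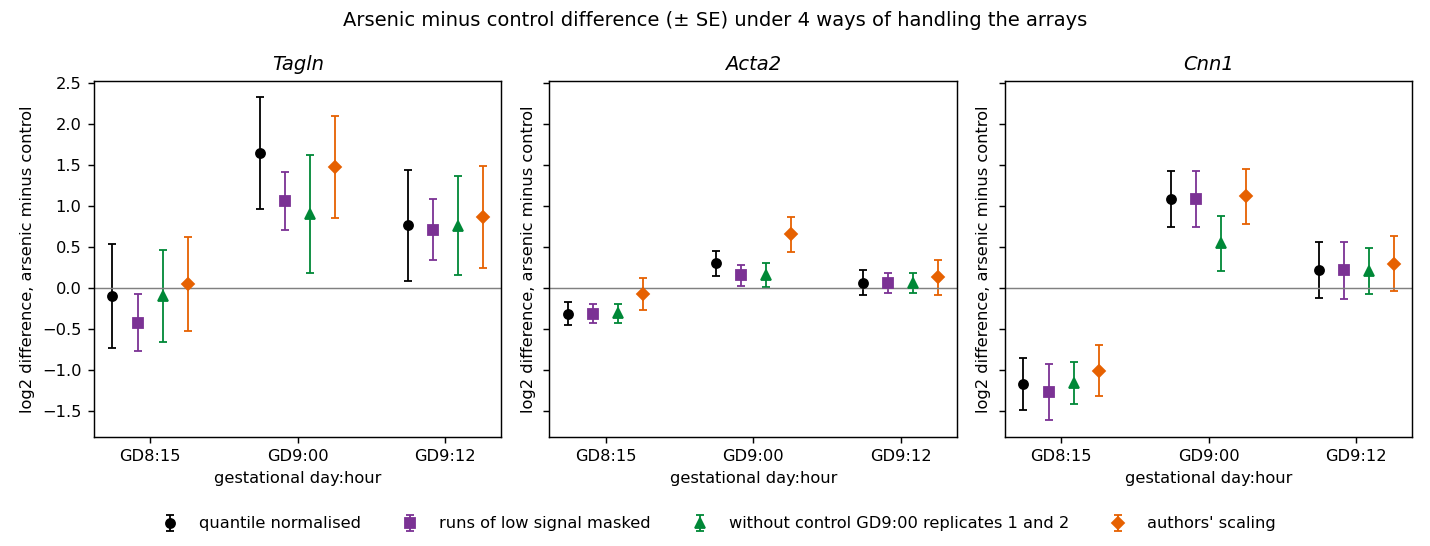
Log2 difference, arsenic minus control, with its SE for each gene and stage, after quantile normalisation, with runs of low signal masked, without control GD9:00 replicates 1 and 2, and with the authors' scaling. Cnn1 lies between -1.27 and -1.01 at GD8:15 under all 4, its GD9:00 value is 0.55 without the 2 control arrays, and Acta2 at GD8:15 is -0.07 under the authors' scaling.

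Some arrays had stretches of consecutive probe numbers with low signal, found as a running median of 31 probes more than 0.25 below the probes' own medians, settings chosen after the data were seen. Control GD9:00 replicates 1 and 2 had 13% and 13.4% of probes in such runs, control GD9:00 replicate 4 had 8.76%, arsenic GD8:15 replicate 4 had 7.45%, and no other array exceeded 3.47%. The Tagln probe lay in a run on 4 arrays, arsenic GD8:15 replicate 4, control GD8:15 replicate 3, control GD9:00 replicate 2 and control GD9:12 replicate 1. They held the lowest Tagln value of their group, except at GD9:12, where control replicate 3 was lower. With all such spots masked, the Tagln difference was -0.42 ± 0.35 at GD8:15, 1.06 ± 0.35 at GD9:00 and 0.71 ± 0.37 at GD9:12 (SE). Cnn1 was touched on control GD8:15 replicate 4 alone and Acta2 on control GD9:00 replicate 1 alone. Masked, the Cnn1 difference was -1.27 at GD8:15 and unaltered at GD9:00, where none of its spots lay in a run.

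**Figure D3:**
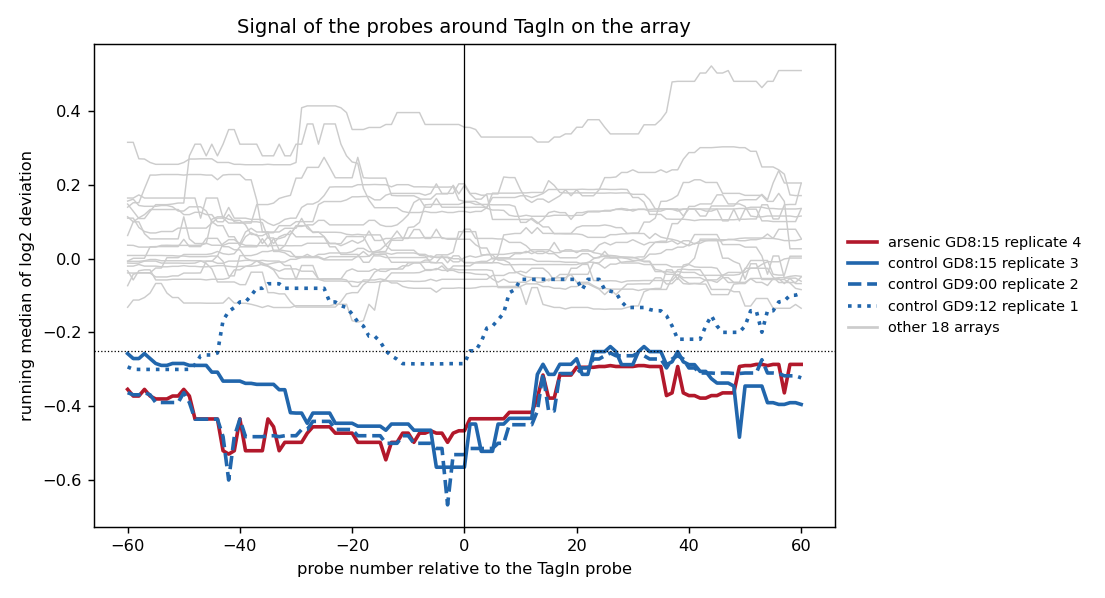
Running median of the log2 deviation from each probe's median over all arrays, for probe numbers up to 60 on either side of the Tagln probe (vertical line), with the 4 arrays that put Tagln in a run in colour, the other 18 in grey and the -0.25 cut-off dotted. Arsenic GD8:15 replicate 4, control GD8:15 replicate 3 and control GD9:00 replicate 2 run low across nearly the whole stretch, while control GD9:12 replicate 1 is under the cut-off at the left edge and again just before the Tagln probe.

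Across stages in controls, each gene had its lowest mean at GD9:12 after quantile normalisation. With the authors' scaling, GD9:12 minus GD9:00 was positive instead, at 0.0864 for Cnn1, 0.19 for Acta2 and 0.56 for Tagln, where the median of all probes was shifted by 0.79. For Cnn1 the control difference was -1.47 ± 0.32 from GD8:15 to GD9:00, -0.63 ± 0.34 from GD9:00 to GD9:12 and -2.10 ± 0.34 (SE) over the whole span, a 4.29-fold lower level at GD9:12. Acta2 differed by -0.29, -0.44 and -0.72 over the same intervals, and Tagln by -0.92, -0.37 and -1.28. Of all probes, the fit called 15% between control GD9:00 and GD8:15, 11.2% between GD9:12 and GD9:00 and 7.71% between GD9:12 and GD8:15, which is the background for the stage differences of related genes given below.

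Stage and the opening digits of the title codes, taken as a slide series although the labels do not explain them, were partly tied, since 1 of 8 arrays at GD8:15 carried the digits that all arrays at GD9:00 carried. The digits were also partly tied to arm at GD8:15. All arsenic arrays there shared digits that, among the controls, only replicates 2 and 4 carried. Within that series, so against these control replicates alone, the arsenic difference was -0.99 ± 0.40 for Cnn1, -0.17 ± 0.17 for Acta2 and -0.76 ± 0.64 for Tagln (SE). With slide series as a term in the fit, the Tagln control difference turned to 1.18 between GD9:00 and GD8:15 and 0.87 between GD9:12 and GD8:15. In that fit the control GD8:15 level rested on replicate 3, the GD8:15 array that carried the GD9:00 digits. Its Tagln spot, at an intensity of 261, lay in a run of low signal. The Cnn1 and Acta2 differences from GD8:15 to GD9:12 kept their negative sign under every alternative tried.

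Ordered over the 6 groups, Cnn1 was highest in control GD8:15 embryos (9.82), followed by arsenic GD9:00 (9.44), arsenic GD8:15 (8.66), control GD9:00 (8.35), arsenic GD9:12 (7.94) and control GD9:12 (7.72). Only the gaps below the top 2 groups exceeded the larger SD of the neighbours. Acta2 ran from 7.99 in arsenic GD9:00 and 7.97 in control GD8:15 down to 7.31 in arsenic GD9:12 and 7.25 in control GD9:12, and only the steps on either side of arsenic GD9:12 exceeded that spread. For Tagln, highest in arsenic GD9:00 (10.86) and lowest in control GD9:12 (8.85), no neighbouring groups differed beyond their spread.

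Array by array, Acta2 and Cnn1 varied together, with Pearson's r of 0.89 and Spearman's rho of 0.90 over 22 arrays, and r of 0.71 after the group means were subtracted. Tagln tracked Cnn1 at r = 0.57 and Acta2 at r = 0.34. Over the 17 arrays on which no spot of the pair lay in a run, those values were 0.84 and 0.77. With all spots kept and the group means subtracted, r was 0.38 for Tagln with Cnn1 and -0.14 for Tagln with Acta2. The arrays share groups and stages, so these correlations are descriptions.

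The probes most like Cnn1 over the 22 arrays, after Acta2, were Phlda2 (r = 0.88), an imprinted regulator of placental growth, the atrial myosin light chain Myl7 (0.87), the cardiac alpha-actin Actc1 (0.86) and the muscle phosphoglycerate mutase Pgam2 (0.82). For Acta2 they were Cnn1, Myl7 (r = 0.88), the RNA helicase gene Ddx25 (0.86), the thioredoxin reductase gene Txnrd1 (0.82) and the DNA repair helicase gene Ercc3 (0.81). For Tagln they were Melk (r = 0.75), Bap1 (0.75), Cd209e (0.73), the desmosomal gene Pkp2 (0.71) and the matrix metalloproteinase gene Mmp2 (0.71). Melk has a probe number 27 below that of Tagln and lay in a run on 3 of the 4 arrays where Tagln did. On the arrays where Tagln lay in none, r was 0.57 for Melk, 0.55 for Bap1, 0.53 for Cd209e, 0.69 for Pkp2 and 0.54 for Mmp2. For the likeness of Cnn1 to Myl7, r without the 2 farthest arrays was 0.84 and within groups 0.72.

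Actc1 and Myl7, sarcomeric genes of the early heart, had larger differences than Cnn1 at GD8:15. Actc1 intensities ranged from 2507 to 5928 in arsenic embryos and from 8402 to 14018 in controls at GD8:15, with no overlap and a log2 difference of -1.57 ± 0.53 (SE, adjusted p = 0.518, limma). At GD9:00 they ranged from 2997 to 12843 in arsenic embryos and from 1412 to 8902 in controls, a difference of 1.03 ± 0.57 (SE) that was 0.43 without control replicates 1 and 2. Myl7 ranged from 1237 to 5579 in arsenic embryos and from 6697 to 19237 in controls at GD8:15, a difference of -1.82 ± 0.52 (SE, adjusted p = 0.399, limma). At GD9:00 its difference was 0.53 ± 0.56 (SE), and -0.03 without the 2 control arrays. In controls Myl7 fell by 4.35 on the log2 scale between GD8:15 and GD9:12, and Actc1 fell by 2.76. Both were named for their likeness to Cnn1 on these same arrays. A fall or an arsenic difference shared with Cnn1 is therefore partly built in. No p-value is given for the fall in controls, and the adjusted p-values above, which did not pass, carry that choice too.

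Of 25 cardiac marker genes listed, 14 were measured, none of which passed the test in an arsenic contrast. At GD8:15, 4 were higher and 10 lower in arsenic embryos (median log2 difference -0.08, against 0.00 for all tested probes), at GD9:00 11 were higher and 3 lower (median 0.10), and at GD9:12 the split was 7 and 7. Without control GD9:00 replicates 1 and 2 the GD9:00 split was 5 higher and 9 lower (median -0.04), and with the authors' scaling the GD8:15 split was 8 higher and 6 lower (median 0.06, against 0.21 for all probes). Besides Actc1 and Myl7, the low members at GD8:15 included the transcription factor genes Nkx2-5 (-0.64 ± 0.23) and Gata6 (-0.55 ± 0.17, SE). The 4 higher members were Gata4 (0.18 ± 0.27), Hand1 (0.16 ± 0.34), Tnni1 (0.16 ± 0.20) and Atp2a2 (0.15 ± 0.17, SE). The mean of the 14 genes on each array lay between 8.41 and 8.89 in arsenic embryos and between 8.85 and 9.10 in controls at GD8:15. At GD9:00 it lay between 8.61 and 9.17 in arsenic embryos and between 8.33 and 8.99 in controls, where the highest, replicate 4, was also the control array with the most Cnn1, Acta2 and Tagln.

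Over the 22 arrays that cardiac mean correlated with Cnn1 at r = 0.83 (rho = 0.84, 0.51 within groups), with Acta2 at 0.78 (0.25 within groups) and with Tagln at 0.48 (0.35 within groups, and 0.74 over the 18 arrays on which the Tagln spot lay in no run). The cardiac mean includes Actc1 and Myl7, named above for their likeness to Cnn1 or Acta2, so these correlations partly restate that likeness. A mean without them was not computed. The mean of 13 neural markers correlated with the opposite sign, at r = -0.64 with Cnn1, -0.67 with Acta2 and -0.48 with Tagln. The mean of 5 blood markers was also negative, at -0.47 with Cnn1, -0.69 with Acta2 and -0.02 with Tagln. That of 6 surface ectoderm markers was positive, at 0.61 with Cnn1 and 0.66 with Acta2, but -0.24 and -0.19 within groups. The arrays share stages, so these values are descriptions and do not set heart against neural tissue. All 13 neural markers on the array passed the filter on dim probes, at a median percentile of 73.6 of mean intensity. Single neural markers ranged from percentile 26.2 (Cdh2) to 97.4 (Six3). The measured cardiac markers ranged from 32.1 (Myl4) to 96.9 (Actc1), with Myl7 at 95.9. Probes differ in response, so these ranks do not show how much of the pieces was neural. In such bulk RNA, fewer cells of a type and less RNA per cell cannot be told apart, and the part of cardiac tissue in the dissected pieces in these differences was not tested.

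**Figure D4:**
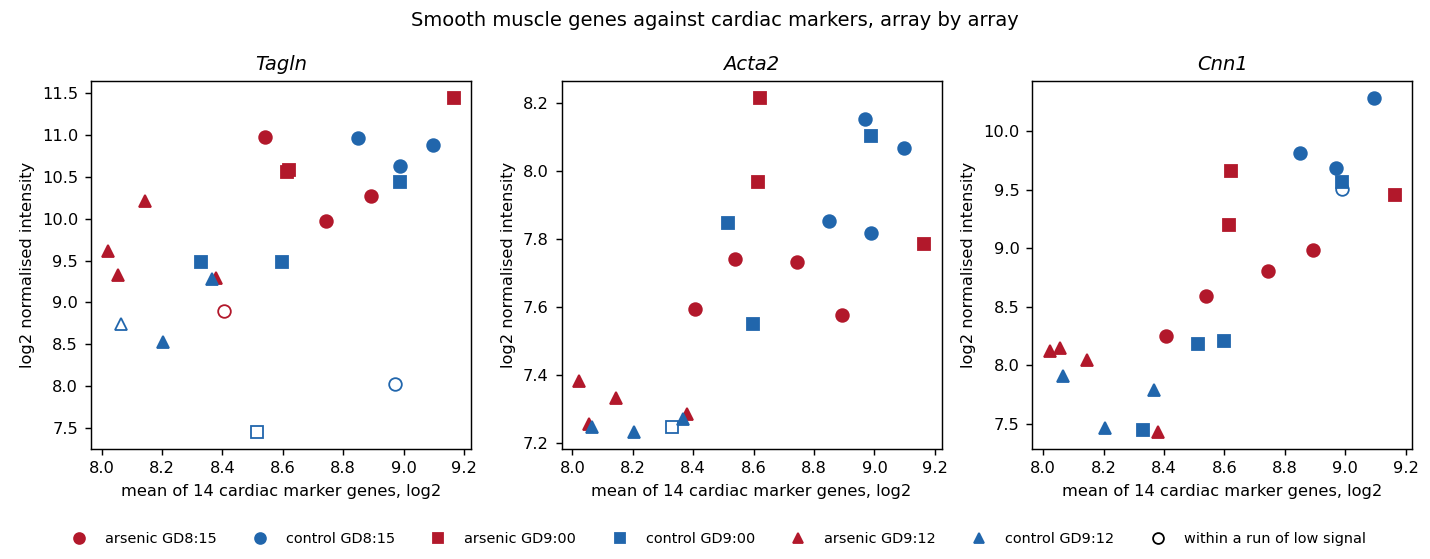
Log2 normalised intensity of Tagln, Acta2 and Cnn1 (vertical axes) against the mean log2 intensity of 14 cardiac marker genes (horizontal axes) on each array, with arsenic in red, control in blue, a symbol for each stage and open symbols for spots within a run of low signal. Cnn1 follows the cardiac mean most closely (r = 0.83, n = 22), a mean that includes Actc1 and Myl7. Of the 4 open Tagln points, 3 are the lowest of their group.

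No close relative other than Actc1 combined a difference under -1 at GD8:15 with one over 1 at GD9:00. Among the calponins, the more widely expressed Cnn2 had arsenic differences of 0.68 ± 0.35, -0.11 ± 0.38 and -0.15 ± 0.38 (SE) at the 3 stages, and Cnn3 had 0.13, -0.05 and 0.27. The neuronal transgelin Tagln3 stayed between -0.05 and 0.11. The cytoplasmic actin Actb had -0.51 ± 0.28, -0.25 ± 0.31 and 0.24 ± 0.31 (SE), and Actg1 had 0.30, -0.26 and -0.22. The skeletal actin Acta1 had -0.24, 0.27 and 0.07, near the Acta2 differences of -0.31, 0.30 and 0.06. Its GD9:00 value was 0.01 with runs masked and 0.53 without control GD9:00 replicates 1 and 2. With the authors' scaling it was 0.84, where the median of all tested probes was shifted by 0.43. The probes of Tagln2 and of the enteric smooth muscle actin Actg2 fell below the filter. None of the 7 tested relatives, Actc1 included, passed in an arsenic contrast. Between control stages, Cnn3 fell by 1.63 from GD9:00 to GD9:12 (adjusted p = 0.00285, limma), Acta1 fell by 0.49 from GD8:15 to GD9:00 (0.0241) and Actb rose by 1.04 from GD8:15 to GD9:12 (0.0435).

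No gene of the smooth muscle apparatus, in the trio or beyond it, passed with arsenic. Of 22 other contractile genes listed, 13 were on the array and 10 were measured. At GD8:15, 2 were higher and 8 lower in arsenic embryos (median -0.10), at GD9:00 8 were higher and 2 lower (median 0.20), and at GD9:12 4 were higher and 6 lower (median -0.05). The GD9:00 split was 4 higher and 6 lower with runs masked (median -0.07) and 3 higher and 6 lower of 9 measured without control GD9:00 replicates 1 and 2, and the GD8:15 split was 7 higher and 3 lower with the authors' scaling (median 0.16, against 0.21 for all probes), so no direction of the list is given. Myh11, the smooth muscle myosin heavy chain and the defining marker of mature cells, was below the filter on dim probes. Lowest in p were Ppp1r14a (-0.29 ± 0.18), Smtn (-0.65 ± 0.43), Itga8 (-0.15 ± 0.13) and Tpm1 (-0.12 ± 0.12, SE) at GD8:15. At GD9:00 they were Ppp1r12a (0.86 ± 0.35), which encodes the myosin phosphatase targeting subunit, Vcl (0.25 ± 0.13, with 2 control spots in runs of low signal), Ilk (-0.36 ± 0.23) and Tpm1 (-0.15 ± 0.13, SE). At GD9:12 they were Des (-0.10), Tpm2 (-0.42), Ppp1r12a (0.29) and Itga8 (-0.10). In controls, Ppp1r14a, which encodes an inhibitor of myosin phosphatase, passed, falling by 0.62 between GD8:15 and GD9:00 (adjusted p = 0.0303, limma).

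**Figure D5:**
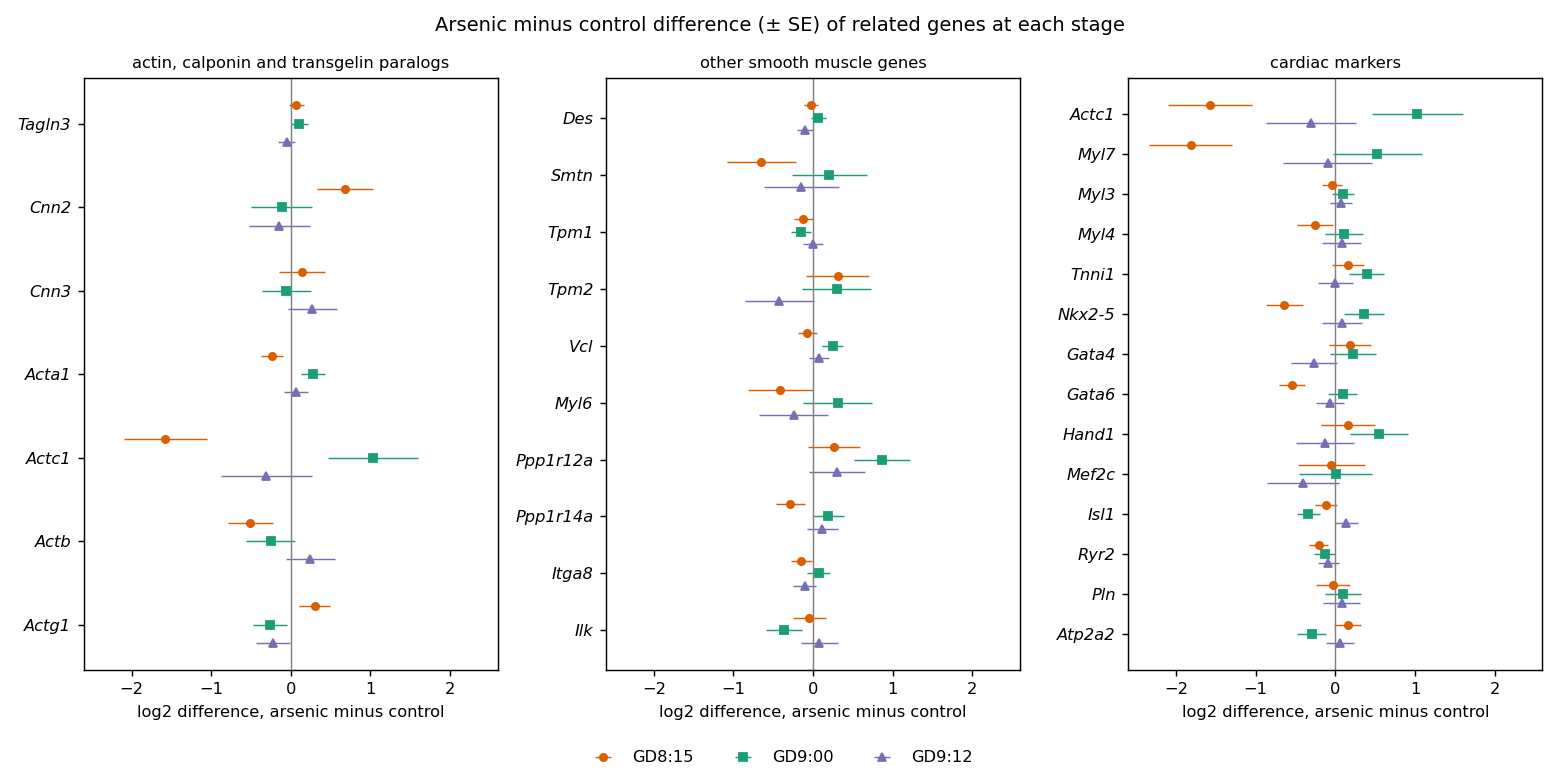
Log2 difference, arsenic minus control, with its SE at each stage for 7 paralogs, 10 other smooth muscle genes and 14 cardiac markers. Actc1 and Myl7 lie near -1.6 and -1.8 at GD8:15, and no gene shown passed an adjusted p of 0.05 in an arsenic contrast.

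Among SRF and its cofactors and targets, 9 of 15 listed genes were measured and 0 passed in an arsenic contrast, with 6 higher and 3 lower at GD8:15 (median 0.18), 5 higher and 4 lower at GD9:00 (0.15) and 3 higher and 6 lower at GD9:12 (-0.03). With runs masked the medians were 0.07 at GD8:15 and 0.00416 at GD9:00, and with the authors' scaling 8, 9 and 5 of the 9 were higher at the successive stages. Myocd, which encodes myocardin, shared the signs of Cnn1 and Acta2 at the first pair of stages, at -0.33 ± 0.13 at GD8:15, 0.29 ± 0.14 at GD9:00, where 1 control spot lay in a run of low signal, and -0.01 ± 0.14 (SE) at GD9:12. The SRF targets Ccn1 and Fos had values of the opposite sign at GD8:15, at 0.39 ± 0.13 and 0.28 ± 0.11, as did the cofactor gene Elk1 at 0.35 ± 0.16 (SE). At GD9:00 Egr1 had 0.40 ± 0.13, with 2 of its control spots in runs of low signal, Fosb 0.77 ± 0.38 and Srf itself -0.20 ± 0.10 (SE). At GD9:12 the lowest p belonged to Fos (-0.19), Elk1 (-0.23), Ccn2 (0.21) and Ccn1 (-0.10). Srf fell by 0.38 in controls between GD9:00 and GD9:12 (adjusted p = 0.0181, limma).

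Of 17 TGF-beta pathway genes listed, 9 were measured and 0 passed in an arsenic contrast, with 5 higher and 4 lower at GD8:15 (median 0.08), 7 higher and 2 lower at GD9:00 (0.14) and 4 higher and 5 lower at GD9:12. Without control GD9:00 replicates 1 and 2 the GD9:00 split was 5 and 4, and with the authors' scaling all 9 were higher at GD8:15 and GD9:00. The receptor genes Tgfbr2 (0.80 ± 0.33) and Acvrl1 (0.34 ± 0.14), the common mediator gene Smad4 (-0.29 ± 0.15) and the ligand gene Tgfb3 (0.38 ± 0.22, SE, with 1 control spot in a run of low signal) had the lowest p at GD9:00. At GD8:15 they were Eng (0.16), Smad4 (-0.16), Tgfbr1 (-0.11) and Tgfb2 (0.22), and at GD9:12 Smad4 (0.17), Eng (-0.14), Tgfbr2 (0.23) and Tgfbr1 (-0.05). In controls between GD8:15 and GD9:00, Tgfb1 fell by 0.30 (adjusted p = 0.0112), the inhibitory Smad6 fell by 0.30 (0.0471) and Tgfbr1 rose by 0.36 (0.0257, limma).

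Markers of other cells that could hold these transcripts gave no passing gene in an arsenic contrast. For pericytes and other mural cells, 3 of 6 measured markers were higher in arsenic embryos at GD8:15, 4 of 6 at GD9:00 and 3 of 6 at GD9:12, and their mean correlated with Cnn1 at r = 0.27, with Acta2 at -0.01 and with Tagln at 0.65, or 0.42 over the 18 arrays on which the Tagln spot lay in no run. Of 8 endothelial markers 6 were higher at each stage, and of 5 skeletal muscle markers 0 were higher at GD8:15, 3 at GD9:00 and 2 at GD9:12. With the authors' scaling 4 of the 5 skeletal muscle markers were higher at GD8:15 (median 0.02, against 0.21 for all probes), and with runs masked 4 of the 8 endothelial markers were higher at GD9:00. Transcripts that mark sex also had unequal ranges between arms. Xist, expressed from the inactive X, lay between 9.77 and 10.35 in arsenic embryos and between 7.10 and 8.71 in controls at GD9:00, and between 7.86 and 9.06 in arsenic embryos and 7.02 and 7.10 in controls at GD8:15. At GD9:12 it lay between 6.93 and 7.15 in arsenic embryos and between 6.88 and 11.34 in controls. The Y-linked Eif2s3y had an arsenic minus control difference of -0.50 at the earliest stage, -0.41 at the middle and 0.38 at the last stage. The part of embryo sex in the differences of the trio was not tested.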

How the data were processed

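Anterior neural tube RNA was amplified, labelled with biotin and hybridised to 22 one-colour CodeLink arrays, per the labels' protocols. The deposited intensity values were linear and scaled by the authors to a common array mean within each stage. The scanner software, background correction and genome build are not given in the sources used here. The 838 values of 1 or 2, below the next value of 56, were set to missing. Log2 intensities were quantile normalised. Probes with at least 2 values in each group and a mean above the lowest 25% were tested, which left 7830 of 10500. One limma 3.58.1 model (R 4.3.3, lmFit and eBayes) with 6 group means gave all differences, with Benjamini-Hochberg adjustment at 0.05. It was tested on simulated data. Figures used Python 3.11.15 and matplotlib 3.10.9. Gene symbols came from the platform annotation, updated through RefSeq.

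The genes, the related gene lists and the settings for runs of low signal were chosen with earlier results of these data known. Named genes are all 3 members, the 5 probes most like each, all paralogs, and up to 4 genes of lowest p, plus any that passed, from each pathway list. The cardiac markers other than Actc1 and Myl7, the sex transcripts Xist and Eif2s3y, and Myh11 were named outside this rule. The number of arrays limits the precision, with a median SE of 0.184 at GD8:15. Each gene has 1 probe. Elsewhere on the array 92 genes had 2 tested probes, which correlated with a median r of 0.0489, so a value stands for its probe. Alternatives covered scaling, filtering, placeholders, masking, array weights, the eBayes prior, slide series and leaving out each array.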

Additional observations from a re-analysis of the deposited data

Results flagged for a closer look

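Within groups of 4 arrays, 2 of 12 had an array far from the other 3 by Dixon's criterion, which chance alone meets in about 1 group in 20. The Tagln intensity of control GD8:15 replicate 3, at 261 against 1592 to 2001 on the other controls, was one, and lay in a run of low signal. The Cnn1 intensity of arsenic GD9:12 replicate 4, at 173 against 264 to 284, was the other, and lay in no run.

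All arsenic arrays lay on opposite sides of the control mean at a pair of stages for Cnn1 and Acta2. For Cnn1 the log2 difference was -1.17 at GD8:15 and 1.09 at GD9:00. For Acta2 it was -0.312 at GD8:15, against values of 0.303 (GD9:00) and 0.0646 (GD9:12). The difference between stages was not tested for these genes alone, since their values chose them.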

How the results depend on the processing

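The number of probes called moved most. For arsenic minus control, 0 were called at each stage. At GD8:15 the count was 3 with placeholders kept, 4 with runs of low signal masked, with array weights and without control GD9:00 replicates 1 and 2 (an alternative chosen after seeing the data), and 5 with a trended robust prior. At GD9:00 it was 1 with the authors' scaling, with slide series as a term and with one slide series per stage, 110 with array weights and 57 without those 2 arrays, and at GD9:12 it was 1 with array weights. The F test gave 1 without the 2 arrays. Between controls, counts for GD9:00 against GD8:15, GD9:12 against GD9:00 and GD9:12 against GD8:15 were 2744, 5612 and 1421 with the authors' scaling, 1972, 1801 and 2034 with array weights, 35, 516 and 47 with slide series as a term, and 632, 510 and 192 with one slide series per stage. The authors' scaling set a different array mean at each stage, so its counts between stages include that offset. Without the 2 arrays the first pair of counts was 591 and 417. Leaving out 1 array gave 0 to 5, 0 to 35 and 0 to 1 calls for arsenic, 671 to 1394, 402 to 1043 and 290 to 727 between controls, and 0 to 4 for the F test. 

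With the authors' scaling, Acta2 was -0.0737 and 0.66 for arsenic minus control at GD8:15 and GD9:00, -0.77 for control GD9:00 minus GD8:15 and 0.19 for GD9:12 minus GD9:00, where Cnn1 was 0.0864 and Tagln 0.56. Without control GD9:00 replicate 4 that Tagln value was 0.0435. With slide series as a term, control Tagln was 1.18 for GD9:00 minus GD8:15 and 0.87 for GD9:12 minus GD8:15. Without the 2 arrays Cnn1 was 0.55 for arsenic at GD9:00, -0.93 for control GD9:00 minus GD8:15 and -1.15 for GD9:12 minus GD9:00. Between stages, values with the authors' scaling carry the offset of its unequal array means. Control values against GD8:15 with the series term rest, at GD8:15, on replicate 3. The cause of the remaining changes was not tested. Leaving out each array gave Cnn1 differences of -1.30 to -1.02 at GD8:15 and 0.78 to 1.49 at GD9:00, Acta2 differences of -0.37 to -0.25 and 0.16 to 0.44, and Tagln differences of -0.79 to 0.28, 1.06 to 2.06 and, at GD9:12, 0.56 to 0.96. No paired analysis was possible because the labels give no numbers shared between arms.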
